A study of Homo sapiens with 16 samples.

Results

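The miR-320 family was examined in OE19 cells, a human esophageal adenocarcinoma (EAC) cell line. Its 5 members, hsa-miR-320a, hsa-miR-320b, hsa-miR-320c, hsa-miR-320d and hsa-miR-320e (written without the prefix below), were taken by name among the 2565 miRNA probes of the array, with 1 probe for each member. miRNA levels were measured on 8 single-color arrays of OE19 cells cultured without telmisartan (control) and 8 arrays of OE19 cells that received 100 μM telmisartan for 48 h. Telmisartan is an angiotensin II type 1 receptor antagonist used against hypertension, and the study asked which miRNAs change when it is given to EAC cells. Both groups were the same cell line grown in the same medium with serum, so 1 line stands for EAC here. Whether arrays of 1 group stem from separate cultures is not given in the labels, so each p-value reflects the variation among these arrays alone and that variation may be technical. The family was proposed with the telmisartan result already known, so its change from control is given as a description, without a p-value.

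Most miRNAs are cut from a long nuclear transcript by Drosha, exported as a hairpin, and cut again by Dicer. miR-320 is the textbook exception. In mouse cells its hairpin arises directly as a short capped transcript, without Drosha, leaves the nucleus through Exportin-1, and is then cut by Dicer, after which almost only the strand from the 3′ arm is kept. Human cells that lack Drosha keep miR-320 while they lose most other miRNAs. miR-320a has been described as a restraint on β-catenin, an effector of Wnt signaling, in colon cancer cells.

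The mature sequences show how close the members are, and which of them share the bases that pair with a target. RefSeq (GRCh38.p14) sequences matched 4 of the 5 members, and miR-320a is named only. Capitals mark the seed, bases 2 to 8 from the 5′ end, the stretch that does most to choose the targets of a miRNA.
miR-320b: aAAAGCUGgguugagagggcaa
miR-320c: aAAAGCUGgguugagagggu
miR-320d: aAAAGCUGgguugagagga
miR-320e: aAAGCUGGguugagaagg
miR-4429: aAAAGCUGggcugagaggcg
The last of these is not a member, and it is shown because its seed is that of miR-320b, miR-320c and miR-320d.

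miR-320b, miR-320c and miR-320d have the same seed, AAAGCUG, and differ only near the 3′ end. Counted from 1 at the 5′ end of miR-320b, which is 22 nt long, miR-320c has the substitution C20U and ends 2 bases earlier, and miR-320d has G19A and ends 3 bases earlier. miR-320e carries G17A, ends 3 bases earlier and starts 1 base later. Because of that later start its bases 2 to 8 read AAGCUGG, a different seed, although the underlying letters are the same. A run of 15 bases, AAAGCUGGGUUGAGA, is common to all 4 sequences, and miR-320b and miR-320c share 19 bases without a break. Signal shared between probes for such near-identical miRNAs was not tested. Each value below is therefore the signal at a member's probe.

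The 4 sequences come from 7 loci. miR-320b is encoded at chr1:116671787-116671808 on the plus strand (MIR320B1) and at chr1:224257049-224257070 on the minus strand (MIR320B2), inside the span of NVL. miR-320c lies at chr18:21683559-21683578 (MIR320C1) and chr18:24321716-24321735 (MIR320C2), both on the plus strand, inside the spans of ABHD3 and OSBPL1A. The copies of miR-320d are at chr13:40727828-40727846 (MIR320D1) and chrX:140926172-140926190 (MIR320D2), both on the minus strand and outside any other annotated gene. miR-320e is at chr19:46709294-46709311 on the minus strand, inside the span of PRKD2. In all 7 hairpins the mature sequence lies in the 3′ arm. The hairpin of MIR320B1 is shown as an example of this layout, with the mature miR-320b in capitals.
MIR320B1: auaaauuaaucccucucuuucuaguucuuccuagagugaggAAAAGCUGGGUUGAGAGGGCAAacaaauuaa
Since miR-320b, miR-320c and miR-320d each have 2 loci with one mature sequence, the arrays cannot tell the copies apart.

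The arrays differed in background and in the number of detected probes. The background, which is the trimmed mean of the blank spots, was 14.9 to 32.5 intensity units in control (median 23.0) and 19.9 to 33.6 with telmisartan (median 23.3). Between 454 and 1621 probes were detected above it on control arrays (median 804), and 458 to 1885 on telmisartan arrays (median 931). The labels name no batch, but arrays 1 to 4 and arrays 5 to 8 of each group lay apart in the study's clustering picture, and both sets are shown separately below. Backgrounds were higher in the first set, with medians of 27.7 against 21.3 in control and 31.3 against 20.7 with telmisartan. As a check of the cell type, all 3 epithelial markers and all 3 markers of columnar gut epithelium were detected on every array, whereas no blood, muscle, fibroblast or neuron marker was detected on all. Among these the blood marker miR-451a came closest, on 7 of 8 arrays of each group, at 3.36 to 10.4 units above background. miR-126-3p, listed as an endothelial marker, was also detected on all 16 arrays, at 19.3 to 77.8 units above background. Between the groups it differed by 0.22 on the log2 scale (limma adjusted p = 0.780), and its part in the results was not tested. Of the 6 epithelial and gut markers 2 passed the limma threshold of 0.05, where 17% of all miRNAs did, namely miR-141-3p (-0.82, limma adjusted p = 0.00222) and miR-194-5p (-0.29, 0.0313), both lower with telmisartan. The others were at 0.21 (miR-200c-3p), 0.18 (miR-215-5p), -0.016 (miR-200b-3p) and -0.061 (miR-192-5p). These are bulk samples, in which fewer cells of a kind and less RNA per cell cannot be told apart.

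All 5 members were detected on all 16 arrays, and none of their spots was marked as not good. The raw signal of a member was 4.11 to 23.4 times the detection level of its array, the lowest being miR-320e on a control array. All 5 are among the 382 miRNAs in the table of normalized values, where every array has the same distribution of intensities with a median of 37.7. The values below are these normalized intensities on a linear scale unless another scale is named. No level of one member is set against that of another, since each probe has its own efficiency.

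miR-320a was at 297 to 372 on control arrays (median 329) and at 357 to 463 on telmisartan arrays (median 382). On 5 of the 8 telmisartan arrays it was above every control array, so the groups overlapped. miR-320b was at 235 to 297 in control (median 271) and at 264 to 446 with telmisartan (median 316). It exceeded every control array on 6 telmisartan arrays, and on telmisartan arrays 5 and 8 it lay inside the control range. miR-320c ranged from 203 to 281 in control (median 249.8) and from 251 to 344 with telmisartan (median 283). Of the telmisartan arrays, 4 lay above all control arrays.

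miR-320d was at 176 to 272 on control arrays (median 226) and at 244 to 290.4 on telmisartan arrays (median 272). Here the low side moved more than the high side, because 5 of the 8 control arrays lay below every telmisartan array and only 3 telmisartan arrays lay above every control array. miR-320e, whose seed differs, was at 119 to 163 in control (median 136) and at 163 to 186 on 7 telmisartan arrays (median of all 8, 173). It was above all control arrays on 6 telmisartan arrays, and on telmisartan array 8 it lay inside the control range, at -0.097 from its own mean over the 16 arrays on the log2 scale. No member separated the groups completely. Of all 382 miRNAs, 2.36% did so with the higher values under telmisartan, and no reading is taken from that share, since the members were chosen on this contrast. On background-subtracted intensities the telmisartan arrays above every control array numbered 4, 6, 5, 2 and 2 for miR-320a, b, c, d and e.

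**Figure D1:**
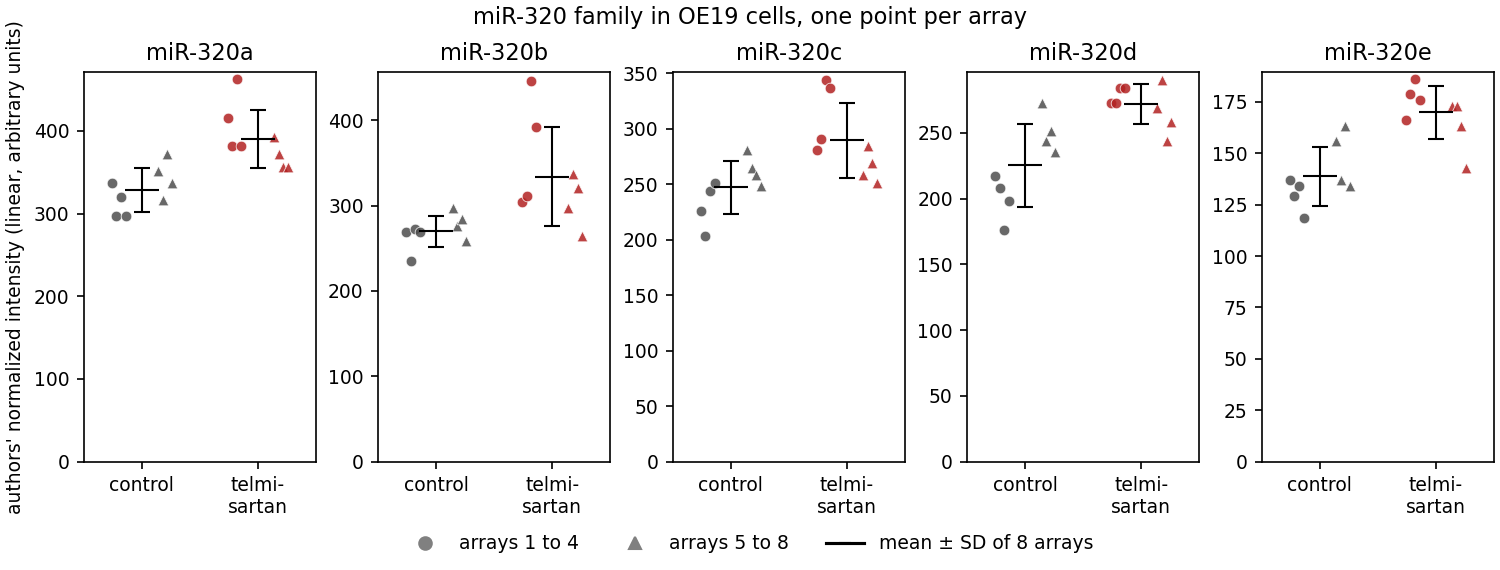
Normalized intensity (linear, arbitrary units) of each miR-320 member on each control and telmisartan array, with circles for arrays 1 to 4, triangles for arrays 5 to 8, and bars for the mean ± SD of 8 arrays. In every panel the circles part the groups, while the triangles of both groups overlap.

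On the log2 scale the 5 members were higher with telmisartan by similar amounts. The mean of miR-320a went from 8.36 ± 0.11 to 8.60 ± 0.12 (SD, n = 8 arrays), a difference of 0.25 ± 0.07 (SE) or 1.19-fold. The difference was 0.29 ± 0.10 for miR-320b (1.22-fold), 0.23 ± 0.08 for miR-320c (1.17-fold), 0.28 ± 0.08 for miR-320d (1.22-fold) and 0.30 ± 0.07 for miR-320e (1.23-fold). The median of the 5 was 0.28, and the median of all 382 miRNAs was -0.0079. A higher value with telmisartan was seen for 48.4% of all miRNAs, against 5 of 5 members. In order of the change, from the largest rise downward, the members took places 57 to 76 of 382. The family therefore stood in the upper part of the distribution without being at its top. Spread differed by group and member: miR-320b varied more with telmisartan (SD 0.24) than in control (SD 0.10), and miR-320d varied less (SD 0.08 against 0.20).

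The same values were also read array by array, and they include the difference between the groups given above. After each member's own mean over the 16 arrays had been subtracted, all 5 members were below their means on control arrays 1, 2, 3, 4, 6 and 8, and all 5 were above them on telmisartan arrays 1, 2, 3, 4 and 6. Control arrays 5 and 7 had 3 members above and telmisartan array 8 only 2. The highest mean deviation was 0.36 on telmisartan array 3, where miR-320b reached 0.58, and the lowest was -0.30 on control array 2. In control the members lay farthest apart on array 3, spanning 0.36. There miR-320d was at -0.49 from its own mean and the others were at -0.19 to -0.13. Between arrays with the same number, telmisartan was the higher in 7 of 8 pairs for miR-320a, miR-320b, miR-320c and miR-320e, and in 6 of 8 for miR-320d.

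**Figure D2:**
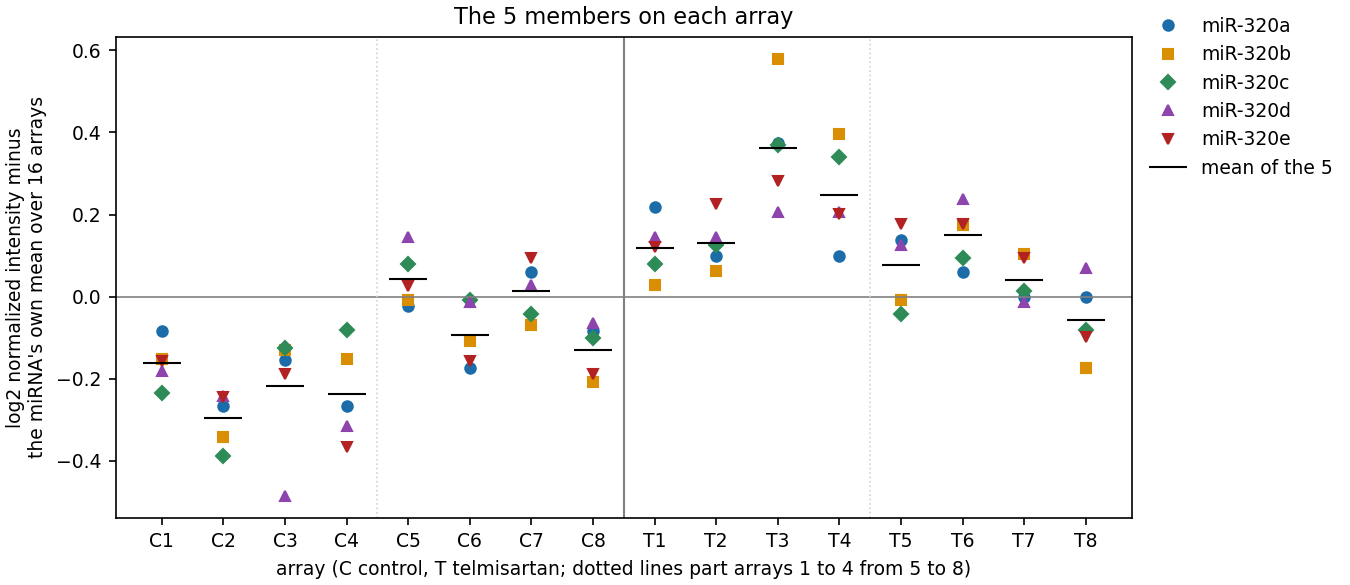
Deviation of each member from its own mean over 16 arrays (log2 normalized intensity, vertical axis) on control arrays C1 to C8 and telmisartan arrays T1 to T8, with a bar for the mean of the 5 members. The bars run from -0.30 on C2 to 0.36 on T3. The deviations include the difference between telmisartan and control, on which the family was proposed. Within an array the members spanned up to 0.36 in control (C3) and 0.37 with telmisartan (T3).

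On the authors' normalized values the difference between the groups lay mainly in arrays 1 to 4. In that set miR-320d was at 217, 208, 176 and 198 on the control arrays and at 272, 272, 284 and 284 on the telmisartan arrays, a log2 difference of 0.48 (1.40-fold). miR-320b was at 269, 235, 272 and 269 in control and at 304, 312, 446 and 392.4 with telmisartan, a difference of 0.46 (1.38-fold). All 5 members separated the groups without overlap within arrays 1 to 4, with differences of 0.39 to 0.48. Of all 382 miRNAs 16.8% did so in that direction within this set. On background-subtracted intensities the groups overlapped within arrays 1 to 4 for miR-320b and miR-320e, but not for miR-320a, miR-320c and miR-320d.

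In arrays 5 to 8 the groups overlapped for every member. miR-320d was at 272, 244, 251 and 235 in control and at 269, 290.4, 244 and 258 with telmisartan, a log2 difference of 0.081 (1.06-fold). miR-320c was at 281, 264, 258 and 248 in control and at 258, 284, 269 and 251 with telmisartan, a difference of 0.014 (1.01-fold). The remaining differences were 0.10 for miR-320a, 0.12 for miR-320b and 0.14 for miR-320e. All 5 were positive in both sets, as were 22% of all miRNAs, but for miR-320c the value in arrays 5 to 8 was far below its SE of 0.089. None of the 5 members separated the groups, against 12% of all miRNAs with the higher values under telmisartan. The median difference of all miRNAs was 0.034 in arrays 1 to 4 and -0.075 in arrays 5 to 8.

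How large the difference was in each set depended on the normalization. When background-subtracted intensities were centred on each array's median in place of quantile normalization, the members were higher by 0.19 to 0.26 in arrays 1 to 4 and by 0.33 to 0.37 in arrays 5 to 8, the opposite order. With quantile normalization over the probes detected on each array the members were higher by 1.203 to 1.32 in arrays 1 to 4 and lower in arrays 5 to 8, at -0.39 to -0.26, but all miRNAs shifted with them, with medians of 0.90 and -0.45. With the global normalization column of the extraction software the members were likewise at 1.07 to 1.14 and at -0.062 to -0.018. Relative to the median of all miRNAs, the 5 members were higher in both sets under all 7 normalizations, by as little as 0.012 in arrays 5 to 8 with normexp. Over all 16 arrays the median of the members exceeded that of all miRNAs by 0.22 to 0.29 on the log2 scale under the 7 normalizations. These are not 7 separate results. Array median centring, no scaling and the global column differ only by a factor per array, so their relative values nearly coincide (0.35 to 0.40 in arrays 5 to 8). Where all probes were normalized, with or without normexp, the median was over 2565 probes. Since the members were chosen on this contrast, its direction is not independent evidence, and which set carried more of the difference could not be told from these arrays.

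**Figure D3:**
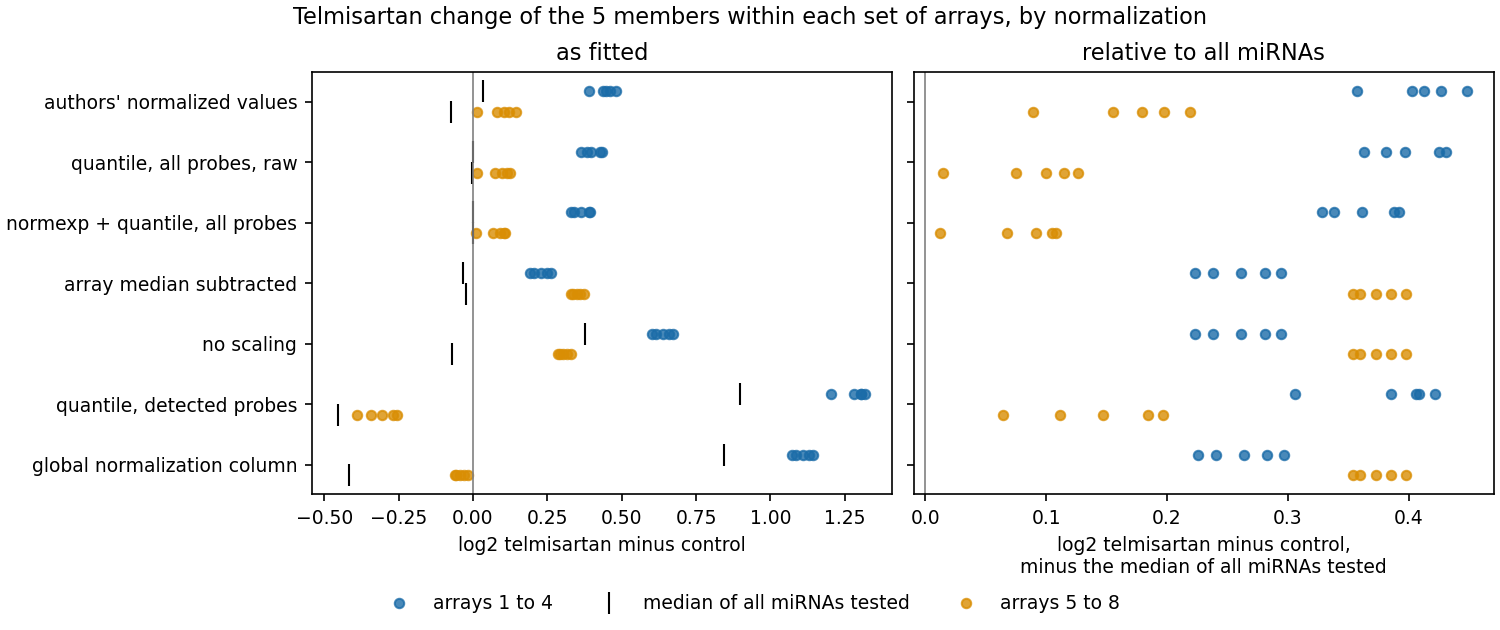
Log2 difference between telmisartan and control of the 5 members within arrays 1 to 4 and within arrays 5 to 8 under 7 normalizations, as fitted (left, with a tick for the median of all miRNAs tested) and minus that median (right). On the right all points lie above 0, and the order of the sets turns between the authors' normalized values (0.36 to 0.45 against 0.089 to 0.22) and array median subtraction (0.22 to 0.29 against 0.35 to 0.40). Array median subtraction, no scaling and the global normalization column nearly coincide on the right, since they differ only by a factor per array.

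The sets themselves were compared with limma on the authors' normalized values, adjusting p by Benjamini-Hochberg over all 382 miRNAs and taking 0.05 as the threshold. The sets had been seen to lie apart in a clustering of these same arrays, so the p-values between sets are no independent evidence that the sets differ. They serve here to place the members among all miRNAs. Among control arrays miR-320d was higher in arrays 5 to 8 than in arrays 1 to 4 by 0.33 ± 0.08 (SE, log2, 1.26-fold, limma adjusted p = 0.00224). The differences were 0.14 for miR-320a (limma adjusted p = 0.139), 0.10 for miR-320b (0.481), 0.19 for miR-320c (0.0696) and 0.18 for miR-320e (0.0745). So 1 of 5 members passed, where 72% of all miRNAs did in one direction or the other and 36.9% were higher. With array median centring all 5 members were instead lower in arrays 5 to 8, at -0.43 to -0.25 (limma adjusted p 0.00727 to 0.0436). All 5 passed there, as did 292 of all 382 miRNAs in one direction or the other. All miRNAs had a median of -0.15 with that scaling and 0.023 on the authors' normalized values. The direction between the sets thus changed with the normalization.

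Among telmisartan arrays every member had a lower value in arrays 5 to 8, and none passed the limma threshold. The differences ran from -0.24 for miR-320b (limma adjusted p = 0.1802) and -0.23 for miR-320c (0.104) to -0.072 for miR-320d (0.555). In this comparison 10.5% of all miRNAs passed, and 5.76% of all miRNAs passed with a lower value. The unadjusted limma p was under 0.05 for miR-320c alone (0.0202). Single arrays weighed on these values, since without telmisartan array 3 miR-320a was at -0.090 and miR-320b at -0.14, without telmisartan array 7 miR-320d was at -0.032 (-0.12 without array 6), and without telmisartan array 8 miR-320e was at -0.058.

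The difference between the sets in the change with telmisartan was tested as an interaction in the same limma fit. It was -0.42 ± 0.13 for miR-320c (limma adjusted p = 0.0242) and -0.40 ± 0.11 for miR-320d (0.0207), that is, a smaller rise in arrays 5 to 8. miR-320a (-0.29, limma adjusted p = 0.0633), miR-320b (-0.34, 0.115) and miR-320e (-0.30, 0.0656) did not pass. Over all miRNAs 35.3% passed this test and 18.8% in the same direction. With array median centring the interaction was 0.082 for miR-320c and 0.11 for miR-320d, opposite in sign and past no threshold (limma adjusted p = 0.730 and 0.579). Of all 382 miRNAs 163 passed with that scaling. That scaling moved all miRNAs, whose median interaction was 0.14 with it and -0.032 on the authors' normalized values. Relative to these medians the median of the 5 members was at -0.024 and -0.31.

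The members ran close to one another over the arrays. Likeness was measured as the mean absolute difference of log2 values over the 16 arrays, after the mean of each miRNA had been subtracted, and it is given as a description, since all points share the same arrays and scaling. It includes the difference between telmisartan and control, on which the family was proposed. Between members it was 0.0748 to 0.154 (median 0.102), and from members to all other miRNAs its median was 0.300. The distance is small for any pair of miRNAs that vary little, whether or not they move together. Within groups the members had SDs of 0.12 to 0.18, so low spread and shared movement were not told apart. miR-320b and miR-320c, which share the longest run of bases, were each the nearest of all 381 other miRNAs to the other, at 0.0751. miR-320a and miR-320e were likewise nearest to each other, at 0.0748, and miR-320d was nearest to miR-320e, at 0.0872. The farthest pair was miR-320b and miR-320d at 0.154, although they share a seed and 18 bases in a row. In 12 of 20 cases a member was among the 4 miRNAs nearest to another member, and in 15 of 20 after array median centring. When the mean of each group was subtracted instead, which takes that difference out, the distance between members was 0.0668 to 0.154 (median 0.101), against a median of 0.264 to all other miRNAs. Only 8 of 20 cases then lay among the nearest 4, while miR-320b and miR-320c were still nearest to each other, and miR-3620-5p was nearer to miR-320e (0.0650) than any member.

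Other miRNAs came as close. The nearest to miR-320a outside the family were miR-4429 (0.0929), miR-1228-5p (0.0939) and let-7b-5p (0.104), and those to miR-320e were let-7d-5p (0.0917), miR-4429 (0.0978) and let-7b-5p (0.0988). let-7 miRNAs are known for holding back growth genes such as those of the RAS family. miR-320b was followed by miR-1228-5p (0.119), let-7d-5p (0.121) and miR-6765-5p (0.132), and miR-320c by miR-8069 (0.106), miR-378a-3p (0.119) and miR-6727-5p (0.119). The nearest to miR-320d were miR-6798-5p (0.0930), miR-4429 (0.105) and miR-1343-5p (0.107). The family was thus not set apart from its nearest neighbors by this measure.

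**Figure D4:**
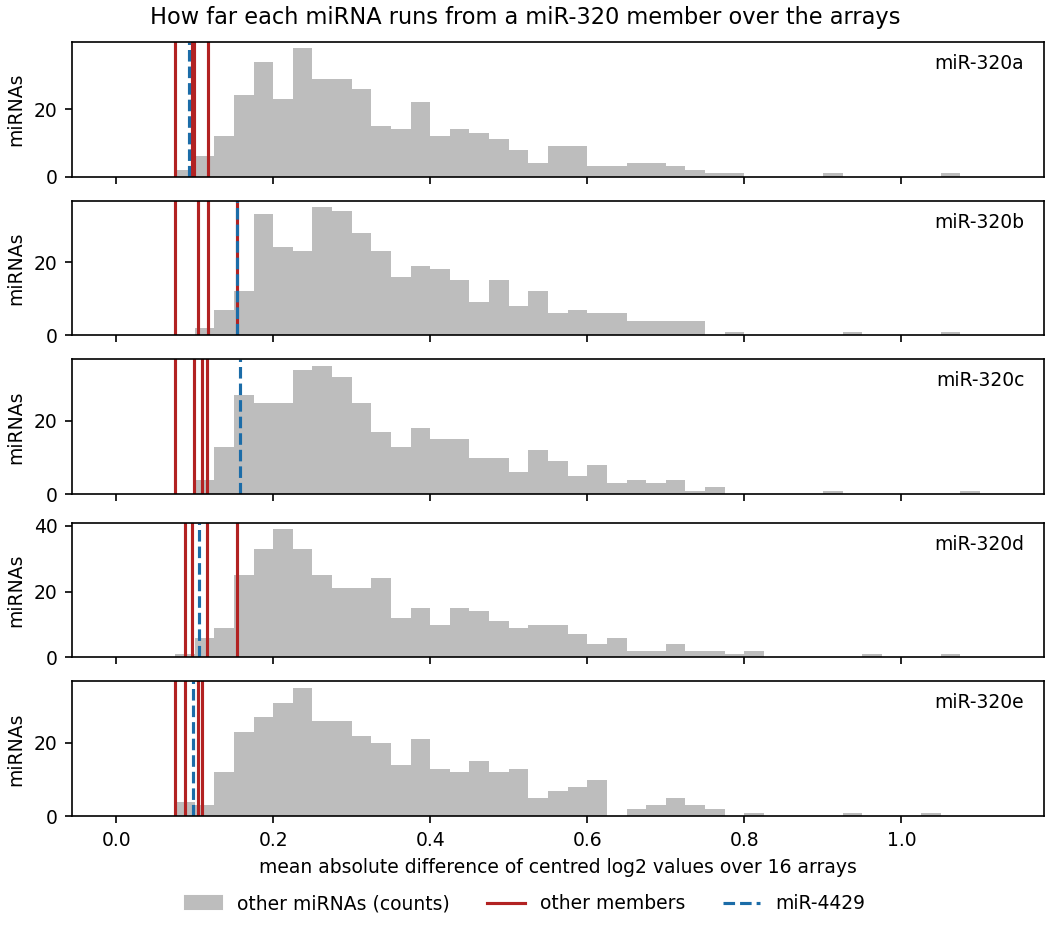
Mean absolute difference of centred log2 values over 16 arrays (horizontal axis) between each miR-320 member and all other miRNAs, with gray bars for counts of non-members, red lines for the other 4 members and a dashed line for miR-4429. The red lines lie between 0.0748 and 0.154, at the low end of every distribution, whose medians are 0.289 to 0.315. miRNAs that vary little lie at the low end of this measure whether or not they move with a member.

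miR-4429 shares its first 10 bases with miR-320b, miR-320c and miR-320d but differs from them further on. It lies at chr2:11540652-11540671 on the minus strand, inside the span of GREB1. It was at 149.9 to 198 on control arrays (median 168) and at 191 to 230.02 on telmisartan arrays (median 205.7), and on 5 telmisartan arrays it was above every control array. It was higher with telmisartan by 0.32 ± 0.07 on the log2 scale (1.24-fold, limma adjusted p = 0.00403), and in 8 of 8 pairs of arrays with the same number. Arrays 1 to 4 gave a difference of 0.37 and arrays 5 to 8 one of 0.26. Over all miRNAs 9.69% were higher past this threshold. With array median centring the differences were 0.14 in arrays 1 to 4 and 0.43 in arrays 5 to 8, the opposite order. miR-4429 was then higher in 7 of 8 pairs, and likewise in 7 of 8 with no scaling. The adjusted p ran from 0.00165 to 1 over the alternatives, and the call was lost with array median centring (0.29, limma adjusted p = 0.140), with quantile normalization over the detected probes (0.47, limma adjusted p = 1) and with the global normalization column (0.53, limma adjusted p = 0.996). Cross-hybridization between this probe and those of the family was not tested.

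A short list of other miRNAs with unusual routes of production was also read. None of its measured miRNAs passed the threshold with telmisartan over all 16 arrays, but 2 did within arrays 1 to 4. Such miRNAs outside the list were not examined as a group. The list held 25 probes, for miR-484, whose hairpin is also made as a capped transcript in mouse cells, for mirtrons, which are spliced out as short introns in place of Drosha cutting, for the simtrons miR-1225 and miR-1228, which need Drosha but not splicing, and for miR-451a, which needs Drosha and is then cut by AGO2 in place of Dicer. Only 6 of the 25 were detected on all 16 arrays, so the list was measured in small part. miR-484 was at -0.016 on the log2 scale (0.989-fold, limma adjusted p = 0.983). miR-1237-5p was at 0.46 (1.38-fold, limma adjusted p = 0.127), miR-1228-5p at 0.21 (0.119), miR-1233-5p at 0.055 (0.920), miR-1229-5p at -0.071 (0.947) and miR-1227-5p at -0.13 (0.832). By limma 0 of these 6 passed, where 17% of all miRNAs did in one direction or the other, and 2 of the 6, miR-1228-5p and miR-1237-5p, had an unadjusted p under 0.05. The exact Mann-Whitney test with the same adjustment also gave 0 of 6. Within arrays 1 to 4 these 2 were higher, miR-1237-5p by 1.07 (2.10-fold, limma adjusted p = 2.1e-05) and miR-1228-5p by 0.38 (1.30-fold, limma adjusted p = 0.00516), where 41.1% of all miRNAs passed in one direction or the other. Within arrays 5 to 8, where 26.2% of all miRNAs passed, they were at -0.14 and 0.045 and 0 of 6 passed. The interaction passed for miR-1237-5p (-1.21, limma adjusted p = 0.00118), also with array median centring (-1.11, limma adjusted p = 0.000478). It also passed for miR-484 (0.57, limma adjusted p = 0.0412), where array median centring gave 0.54 (limma adjusted p = 0.0553). So 2 of 6 passed, where 35.3% of all miRNAs did, and with array median centring 163 of all 382 miRNAs did. In likeness to the miR-320 members miR-484 ranked 243 to 275 of 381. Its spread was wide (SD 0.50 in control), which by itself raises that distance.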

How the data were processed

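Total RNA of the cells was labeled and hybridized to a Toray 3D-Gene human miRNA chip, and the authors scanned it and extracted intensities. Each spot has a deposited intensity as read, after subtraction of the array's background (the mean of the blank spots after 5% had been trimmed from each end), and after global normalization to a median of 25, and spots not above background by 2 SD were left empty. The authors also deposited a table of normalized intensity values for the 382 probes detected on all 16 arrays. Quantile normalization over these probes rebuilt it to a relative difference of 6.46e-08, so its scale is linear and uncentred. These values were analysed as log2 with limma 3.58.1 (lmFit, then eBayes; R 4.3.3), with Benjamini-Hochberg adjustment over all 382 miRNAs. Groups came from the labels. The fit was tested on simulated data.

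The members, the lists and the sets of arrays were chosen with earlier results of these data known. Named were the 5 members, the 3 nearest non-members of each and every miRNA sharing a seed with a member. The measured miRNAs on the list of unusual routes of production and the cell type markers were also named. Arrays with the same number deviated together in 8 of 8 pairs (correlations of 0.149 to 0.864), although only 2 of 8 control arrays correlated best with their own number, so the number was tried as a block. Other settings were quantile normalization over the probes detected on each array (probes detected on at least 6 of 8 arrays of a group, 646), over all 2565 probes with or without normexp (offset 50), array median centring, no scaling, the global column, the methods' t-test, an exact Mann-Whitney test, the sets as a block or alone, and each array left out. Precision is limited by how many arrays there are. The tumor xenografts of the study were not analysed here.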

Additional observations from a re-analysis of the deposited data

Results flagged for a closer look

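miR-320b on control array 2 was at 235, apart from the other 3 control arrays of the first set, of which the lowest was at 269. On the log2 scale the gap was 0.903 of the range of the 4 arrays, above the critical share of 0.829. It was the only one of 30 groups of arrays so marked over the 5 members, and chance marks about 1 in 20.

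The change with telmisartan differed between arrays 5 to 8 and arrays 1 to 4 for miR-320c (-0.42, limma adjusted p = 0.0242) and miR-320d (-0.40, limma adjusted p = 0.0207) on the authors' normalized values. With array median centring they were 0.082 and 0.11, where the median of all miRNAs was 0.14 (-0.032 on the authors' normalized values).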

How the results depend on the processing

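All 5 members were higher with telmisartan under every alternative over all 16 arrays, and the size moved in some. For miR-320a, b, c, d and e in turn the log2 difference was 0.47, 0.52, 0.46, 0.48 and 0.49 after quantile normalization over each array's detected probes, 0.46, 0.50, 0.47, 0.46 and 0.46 with no scaling, and 0.52, 0.56, 0.53, 0.53 and 0.52 with the global normalization column, an alternative chosen after seeing the data. All miRNAs then shifted by 0.23, 0.18 and 0.24. With arrays 1 to 4 only it was 0.39, 0.44, 0.48 and 0.45 for miR-320a, c, d and e, and with arrays 5 to 8 only 0.10, 0.014, 0.081 and 0.14. The replicate block left the 5 differences as they were (0.25 for miR-320a) and gave 75 calls over all miRNAs against 65, of which 61 were shared. It changed no interaction call among the members and no telmisartan call of miR-4429 or of the listed miRNAs with unusual routes of production.

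Array median centring reversed the set difference in control, to -0.33, -0.43, -0.36, -0.25 and -0.32, and the interaction, to 0.14, 0.11, 0.082, 0.11 and 0.17 (medians of all miRNAs -0.15 and 0.14). miR-320d lost its set difference in control with quantile normalization over the detected probes (1.59) and with the global column (1.06), where all miRNAs had medians of 1.44 and 1.16. The interaction was likewise lost for miR-320c (-1.69 and -1.19) and miR-320d (-1.65 and -1.16), where all miRNAs had medians of -1.28 and -1.14. The cause was not tested. Leaving out 1 array gave a set difference in control of 0.13 to 0.23 for miR-320c and also for miR-320e. miR-320c passed without control array 4 (limma adjusted p = 0.0448), and miR-320e passed without control array 8 (limma adjusted p = 0.0415). The same step gave an interaction of -0.33 to -0.23 for miR-320a, which passed without telmisartan array 4 (limma adjusted p = 0.0480). For miR-320e the interaction was -0.35 to -0.24 and passed without control array 8 (limma adjusted p = 0.0425) or telmisartan array 6 (0.0478).

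The count of all miRNAs past the threshold was 65 with limma (37 higher), 31 with array median centring, 1 with the global column and 0 of 646 with limma after quantile normalization over the detected probes, where 7 had an unadjusted p under 0.05. It was 58 with the exact Mann-Whitney test. miR-484, miR-1227-5p and miR-1229-5p turned to 0.20, 0.19 and 0.19 after quantile normalization over detected probes and to 0.20, 0.13 and 0.16 with the global column, below the shifts of all miRNAs given above and past no threshold. Leaving out 1 array moved the set difference with telmisartan to -0.18 to -0.090 for miR-320a, -0.32 to -0.14 for miR-320b, -0.28 to -0.19 for miR-320c, -0.12 to -0.032 for miR-320d and -0.15 to -0.058 for miR-320e, and that of miR-320b in control to 0.046 without control array 2.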
